A study of Mus musculus with 9 samples.

Results

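The microRNA content of small extracellular vesicles in serum was compared between wild-type animals given a high fat diet (called HFD WT) and wild-type animals given chow (called chow WT). The comparison used 6 of the 9 libraries of the series, chosen by diet and genotype label, with 3 per group. All 1169 rows of the count table entered it, of which 1064 are known mature microRNAs and 105 are predicted ones. The series title concerns male mice, vesicle miR-30a-3p released by adipocytes, and fat accumulation in the liver. The sources used here do not give strain, age, weeks on diet or whether the samples are separate animals, so the p-values speak only of the spread among samples, which may be technical. Vesicles were recovered with a commercial precipitation reagent and suspended in PBS, and all 6 libraries carry the same batch label. Vesicle markers are proteins, so the vesicle label could not be checked in these data. The library names of the HFD WT group hold a Sirt3 knock-in code that those of chow WT lack, although both groups are labelled wild type, so diet and a possible difference of mouse line cannot be told apart.

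MicroRNAs are short RNAs that guide repressor complexes to messenger RNAs, mainly through a stretch near their 5′ end called the seed. Cells release some of them inside vesicles into blood, where red cells, platelets, leukocytes, endothelium and liver are known sources. A precursor hairpin gives a 5p and a 3p arm, of which the more abundant is usually the guide and the other the passenger.

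The sequences of the microRNAs with the clearest differences are given here 5′ to 3′ with the seed (bases 2 to 8) in capitals. They were matched by name to RefSeq on GRCm38.p6, where 916 of the 1064 known rows had an entry. The members of the epithelial miR-200 family are shown because all 5 of their 3p arms were lower on the diet, and because they fall into 2 seeds.
miR-429-3p: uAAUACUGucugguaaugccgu
miR-200b-3p: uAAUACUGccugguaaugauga
miR-200c-3p: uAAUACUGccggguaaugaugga
miR-200a-3p: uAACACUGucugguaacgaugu
miR-141-3p: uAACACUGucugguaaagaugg

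The next pair is shown because both share 1 seed and moved in opposite directions, miR-192-5p down and miR-215-5p up.
miR-192-5p: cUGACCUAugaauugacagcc
miR-215-5p: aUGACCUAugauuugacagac

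The following increases include miR-92a-3p and miR-25-3p, which share a seed, and the most abundant single row, miR-16-5p.
miR-92a-3p: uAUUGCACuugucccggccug
miR-25-3p: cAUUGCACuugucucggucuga
miR-16-5p: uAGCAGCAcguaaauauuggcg

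A last set was picked for its base composition. These 4 microRNAs with high miRBase numbers were among the 10 leading decreases, and G and C made up 100%, 94.7%, 85.7% and 69.2% of their bases, against a median of 47.8% over the 294 tested rows with a sequence. Across those 294 microRNAs, which share libraries and are not independent, GC content and the TMM log2 fold change had a Pearson r of -0.048 and a Spearman rho of 0.13. A comparison of GC content between the called sets is void, since only 73 of the 94 decreases and 16 of the 24 increases had a sequence.
miR-5126: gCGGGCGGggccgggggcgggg
miR-6538: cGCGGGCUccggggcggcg
miR-2137: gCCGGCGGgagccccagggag
miR-6240: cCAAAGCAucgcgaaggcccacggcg

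The chow WT libraries held 306974, 293189 and 225002 counts and the HFD WT libraries 2162009, 2028235 and 1953935, so HFD WT was sequenced 7.45 times as deeply on average. Of the 1169 rows 348 passed the filter on low counts (342 known and 6 predicted), and the 821 left out held 0.0816% of counts. The biological coefficient of variation, which edgeR estimates beyond counting noise, was 10.1% on chow and 13.1% on the high fat diet. Every difference is given under 2 scalings. Library totals set each count against the sum of its library, and TMM (trimmed mean of M values) sets it on the assumption that most rows do not differ. TMM raised the log2 fold change by 0.64 to 0.66 relative to library totals, or by 0.56 for the 6 rows at 0 in every HFD WT library, and the median over the 348 rows was 0.090 with TMM and -0.56 with library totals. Levels below are counts per 1000000 of the TMM-scaled total (CPM) unless library totals are named, and every adjusted p of a single microRNA is that of the edgeR quasi-likelihood test over the 348 rows.

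A total of 24 microRNAs rose and 94 fell on the high fat diet under both scalings, which is 6.9% and 27% of those tested. These counts include rows that passed the filter only through the group where they were higher, a direction that the filter favours. With TMM alone 92 were higher (26.4%) and 94 lower (27%), and with library totals 24 were higher (6.9%) and 173 lower (49.7%). Every row that was higher with library totals was also higher with TMM, and every row that was lower with TMM was also lower with library totals. This nesting largely follows from the nearly equal shift of all rows between the scalings. A call under both is thus no independent support. In between, 60 rows were higher with TMM and not called with library totals, and 79 were lower with library totals and not with TMM, of which 8 were higher with TMM. Neither scaling called the other 91. With upper quartile scaling, which raises all values further, 136 were higher and 64 lower, and with the 10 most abundant rows left out of the library totals 75 were higher and 108 lower. The plot of level against change shows these groups.

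**Figure D1:**
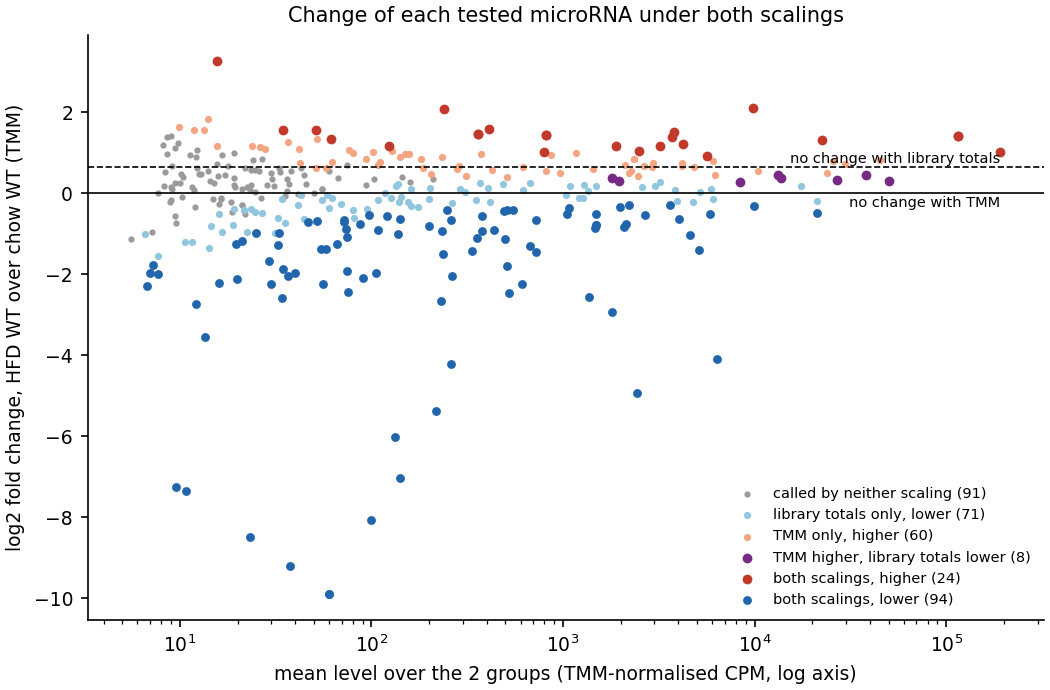
Mean level over the 2 groups (x axis, TMM-normalised CPM, log axis) against the log2 fold change of HFD WT over chow WT (y axis, TMM) for the 348 rows tested, each point a microRNA coloured by its call. The 94 rows lower under both scalings lie below 0, and the 24 higher under both lie above the dashed line 0.66 up, where library totals give no change.

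The increases were mostly of abundant microRNAs and the large changes were mostly decreases. Of the 24 increases 15 had a mean of at least 1000 CPM in either group, against 24 of the 94 decreases and 88 of the 348 rows tested. A change of at least 2-fold with TMM was seen in 23 increases and 55 decreases, and with library totals in 3 and 90. Part of these decreases passed the filter on low counts only through chow WT, so their calls are no finding. The numbers of decreases and increases are therefore not comparable as they stand. A change of at least 8-fold was seen in 1 increase (miR-139-3p) and 14 decreases with TMM, and in 0 and 21 with library totals. Of those 14 only miR-429-3p, miR-6240 and miR-5126 passed the filter through HFD WT as well, and miR-139-3p passed only through HFD WT. In chow WT 3 counts over the group equal 3.64 CPM of library totals and in HFD WT 0.488, so large rises of scarce rows are harder to see. The part of filter and depth in these patterns was not tested. The chow WT and HFD WT libraries did not overlap under either scaling for all 24 increases and for 91 of the 94 decreases, the exceptions being miR-19b-3p, miR-218-5p and miR-99a-3p. Such separation was common, as 43.7% of all tested rows had no overlap under both scalings, 60.9% with TMM and 61.8% with library totals.

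The 10 leading changes in each direction were chosen among rows whose groups do not overlap, so the lack of overlap in them is no finding. Of the decreases, miR-196a-5p, miR-6538 and miR-203b-3p passed the filter on low counts only through chow WT, so their calls are no finding either. The increase with the smallest p was miR-92a-3p, a guide strand made from both the miR-17 to miR-92a-1 cluster (chr14:115044476-115044496) and the miR-106a to miR-363 cluster (chrX:52741854-52741874). Its level was 3354, 3724 and 4047 CPM on chow and 14880, 17256 and 15624 on the high fat diet. Every HFD WT library was thus more than 3 times as high as any chow WT library. The log2 fold change was 2.10 (SE 0.098, adjusted p = 8.58e-11) with TMM and 1.44 (adjusted p = 5.71e-09) with library totals, and its rank in abundance went from between 33 and 39 to between 14 and 17. Its seed partner miR-25-3p, made within Mcm7 on chr5:138165332-138165353, stood at 15234, 12142 and 11706 CPM against 34598, 28810 and 32888 (1.30, SE 0.11, adjusted p = 5.41e-08, and 0.64 with library totals).

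The red cell microRNA miR-486a-5p, whose counts are identical to those of miR-486b-5p in every library and cannot be assigned to either, was the next most abundant increase after miR-16-5p. It stood at 68677, 60882 and 61286 CPM on chow and 171168, 165530 and 167041 on the high fat diet (log2 fold change 1.40, SE 0.072, adjusted p = 2.63e-10, and 0.74 with library totals). Both rows together took 15.98 ± 0.897% of all counts on chow and 26.7 ± 0.483% on the high fat diet (SD, n = 3). The most abundant single row of all 6 libraries, miR-16-5p, which restrains the cell cycle and is abundant in red cells, stood at 120684, 123777 and 137568 CPM against 239516, 251396 and 277025. Its log2 fold change was 1.01 (SE 0.077, adjusted p = 2.55e-08) with TMM and 0.35 (adjusted p = 0.000688) with library totals.

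Of microRNAs known from leukocytes, 3 were among the leading increases, while others, given with the lists of cell types, fell under both scalings. The myeloid and platelet microRNA miR-223-3p stood at 1841, 2074 and 1979 CPM on chow and 5384, 5327 and 6184 on the high fat diet (1.52, SE 0.099, adjusted p = 4.10e-09, and 0.86 with library totals). The level of miR-146a-5p, which is induced by NF-kB and dampens innate immune signalling, was 2241, 1953 and 1993 CPM against 5398, 5088 and 5560 (1.37, SE 0.095, adjusted p = 7.68e-09, and 0.72 with library totals). The lymphocyte microRNA miR-150-5p had 2436, 2612 and 2591 CPM against 6270, 5211 and 6197 (1.21, SE 0.099, adjusted p = 5.41e-08, and 0.55 with library totals).

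The 3 remaining leading increases were less abundant. The intestinal and liver microRNA miR-215-5p (chr1:185313610-185313630) rose from 84.2, 115 and 70.7 CPM to 375, 413 and 374 (2.09, SE 0.17, adjusted p = 6.94e-08, and 1.43 with library totals), and rested on 20 to 43 counts per chow WT library. The level of miR-361-5p, from an intron of Chm, was 437, 474 and 399 CPM against 1110, 1226 and 1227 (1.44, SE 0.12, adjusted p = 5.41e-08, and 0.78 with library totals). The level of miR-99b-5p, from an intron of Spaca6, was 397, 485 and 445 CPM against 1239, 1109 and 1238 (1.43, SE 0.12, adjusted p = 7.15e-08, and 0.77 with library totals). The other increases shared by both scalings were miR-1198-5p, both 3p arms of miR-486, miR-342-3p, miR-423-5p, miR-126a-5p, miR-148a-3p, miR-328-3p, miR-214-3p, miR-139-3p, miR-669c-5p, miR-501-3p and miR-381-3p. Their log2 fold changes with TMM ran from 0.92 in miR-126a-5p to 3.25 in miR-139-3p. The latter rested on 2, 1 and 0 chow WT counts and passed the filter only through HFD WT, so its call is no finding. With library totals the calls of miR-126a-5p, miR-148a-3p, miR-214-3p, miR-381-3p, miR-501-3p and miR-669c-5p were lost when single libraries of either group were left out.

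**Figure D2:**
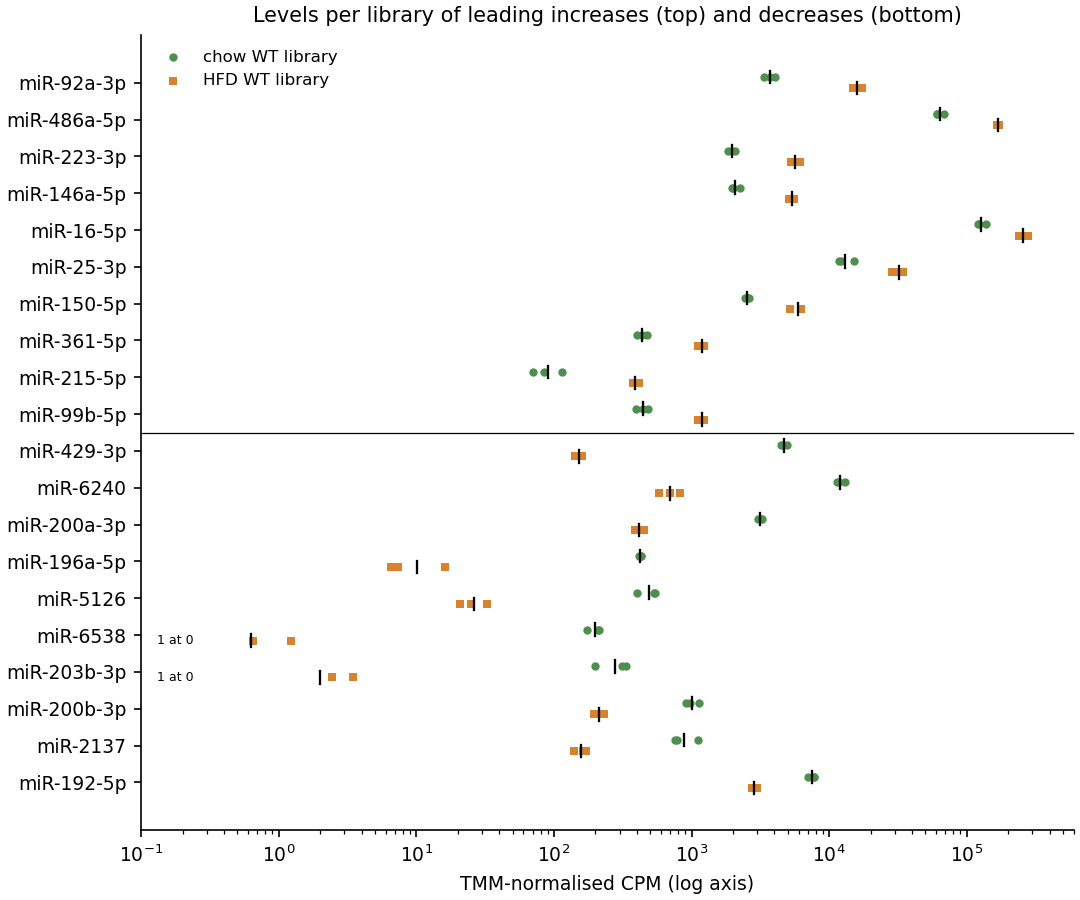
TMM-normalised CPM (x axis, log axis) of the 10 leading increases (above the line) and the 10 leading decreases (below it), with a point per library and a bar at each group mean. Circles are chow WT and squares HFD WT, and libraries at 0 are written as such. The rows were chosen to have no overlap. The lowest HFD WT levels are those of miR-203b-3p and miR-6538, which, like miR-196a-5p, passed the filter only through chow WT.

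The decreases were led by the miR-200 family, which maintains the epithelial state by repressing Zeb1 and Zeb2. The level of miR-429-3p was 4506, 4913 and 4644 CPM on chow and 159, 157 and 142 on the high fat diet, a 30.7-fold difference of the means. Its log2 fold change was -4.94 (SE 0.11, adjusted p = 1.78e-14) with TMM and -5.60 with library totals, and its rank in abundance went from 30 in chow WT replicate 1 to 142 in HFD WT replicate 1. The miR-200b to miR-429 cluster holds miR-429-3p (chr4:156053916-156053937), miR-200a-3p (chr4:156054911-156054932) and miR-200b-3p (chr4:156055685-156055706), all on the minus strand. All 3 arms lie in intron sequence of Ttll10 and within Gm13648, both annotated on the same strand. Of these, miR-200a-3p stood at 3259, 3060 and 3181 CPM against 408, 388 and 449 (-2.93, SE 0.11, adjusted p = 4.99e-12, and -3.59 with library totals). The level of miR-200b-3p was 913, 1141 and 983 CPM against 197, 208 and 233 (-2.25, SE 0.13, adjusted p = 9.66e-10, and -2.91 with library totals). All 3 neighbours fell, and whether their falls differ from each other was not tested. On chow miR-429-3p was the highest of the 3, and on the diet miR-200a-3p was.

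Other leading decreases came from Hox and skin loci. Both miR-196a-5p and miR-203b-3p passed the filter only through chow WT, so a lower level on the diet was favoured by the filter and their calls are no finding. The level of miR-196a-5p, encoded in the Hox clusters and expressed in posterior tissues and adipocyte precursors, was 426, 415 and 431 CPM on chow and 16.3, 7.35 and 6.50 on the high fat diet (-5.36, SE 0.24, adjusted p = 8.45e-11, and -6.02 with library totals). The level of miR-203b-3p was 331, 311 and 198 CPM against 3.49, 2.45 and 0. It lies on the strand opposite the epidermal miR-203 (chr12:112130887-112130908), and the strand setting of the counting is not known. It had 298 counts in all on chow and 10 on the diet (-7.03, SE 0.38, adjusted p = 5.09e-10, and -7.68 with library totals). Its neighbour miR-203-3p stood at 947, 1315 and 813 CPM against 1087, 1116 and 1262 (0.17, adjusted p = 0.369, and -0.49, adjusted p = 0.0117, with library totals).

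The 4 GC-rich microRNAs shown above have no well-described function. The most abundant, miR-6240, stood at 11754, 11370 and 13074 CPM on chow and 701, 831 and 575 on the high fat diet (-4.10, SE 0.13, adjusted p = 1.27e-12, and -4.76 with library totals), and went from rank 14 to 17 to rank 84 to 89. The level of miR-5126, antisense to a UTR of Dner, was 539, 405 and 530 CPM against 32.5, 25.1 and 20.8 (-4.22, SE 0.19, adjusted p = 8.45e-11, and -4.87 with library totals). The level of miR-2137 was 787, 756 and 1110 CPM against 163, 172 and 140 (-2.47, SE 0.16, adjusted p = 3.82e-09, and -3.13 with library totals). The row of miR-6538 passed the filter only through chow WT, so it had to be lower on the diet and its call is no finding. It had 79, 65 and 60 counts on chow and 0, 2 and 1 on the high fat diet, a ratio of 506 with library totals (95% counting interval 171 to 2476). Such intervals cover counting error only, since amplified reads without molecular identifiers are not independent molecules.

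The leading decrease among liver and gut microRNAs was miR-192-5p (chr19:6264857-6264877), which stood at 7731, 6992 and 7709 CPM on chow and 2730, 2774 and 2985 on the high fat diet. Its log2 fold change was -1.40 (SE 0.090, adjusted p = 3.82e-09) with TMM and -2.06 with library totals. It was still the more abundant of the 2 microRNAs with this seed in every HFD WT library, where miR-215-5p did not exceed 413 CPM. The neighbour of miR-192 on its transcript, miR-194-5p, which is also made beside miR-215, stood at 702, 648 and 534 CPM against 462, 491 and 465 (-0.41, SE 0.12, adjusted p = 0.0112, and -1.07 with library totals). Without chow WT replicate 1 its TMM value was -0.32 and not called.

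The HFD WT libraries spread their counts over fewer microRNAs. The 10 most abundant rows took 56.9%, 55.3% and 57.0% of counts on chow and 68.3%, 70.4% and 70.4% on the high fat diet. They hold both identical miR-486 rows, which may count the same reads in each. The effective number of microRNAs (the exponential of the Shannon entropy of the count shares, added after the data were seen) was 42.5 ± 1.20 on chow and 26.1 ± 1.12 on the high fat diet (SD, n = 3). At the deposited depth 538, 547 and 481 rows were detected on chow and 726, 695 and 706 on the high fat diet. With HFD WT thinned at random to 275055 counts, the mean chow WT total, it had 460, 461 and 470, so the order of the groups turned. With all libraries thinned to the smallest total, a setting chosen after the data were seen, the numbers were 500, 523 and 481 against 452, 437 and 457. The exact permutation p was 0.1 for each of these, the smallest that 3 libraries against 3 can give. For the share of the 10 most abundant rows and the first 2 comparisons of rows detected it was 0.145 adjusted over 16 shares and numbers, and those added after the data were seen were not adjusted.

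**Figure D3:**
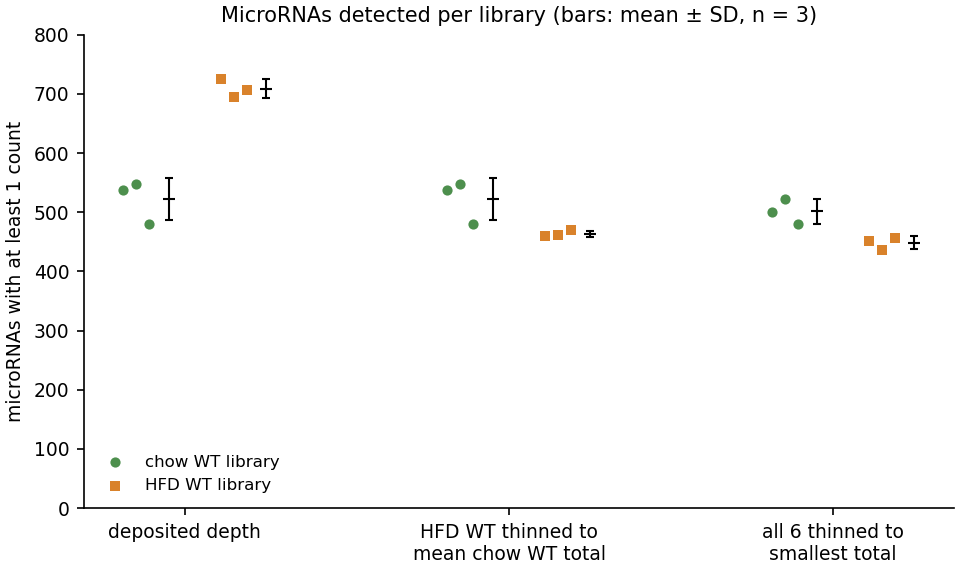
Number of microRNAs with at least 1 count (y axis) in each library at the deposited depth, with HFD WT thinned to the mean chow WT total, and with all libraries thinned to the smallest total; circles are chow WT, squares HFD WT, bars mean ± SD (n = 3). HFD WT lies above chow WT at the deposited depth (695 to 726 against 481 to 547) and below it once thinned.

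For most of the other abundant microRNAs the direction turned on the scaling. The 10 most abundant rows include miR-486a-5p, miR-486b-5p and miR-16-5p described above. The red cell microRNA miR-451a, whose hairpin is cut by Ago2, had 52186, 40012 and 42461 CPM on chow and 47180, 68361 and 51480 on the high fat diet, so the groups overlapped. Its log2 fold change was 0.31 (SE 0.13, adjusted p = 0.0480) with TMM and -0.34 (adjusted p = 0.0269) with library totals, and without HFD WT replicate 2 it was 0.14 with TMM and not called. Of the others, miR-93-5p had log2 fold changes of 0.81 with TMM and 0.15 with library totals, miR-126a-3p 0.79 and 0.13, and miR-21a-5p 0.71 and 0.053, all 3 higher with TMM and not called with library totals. The same held for miR-29a-3p at 0.49 and -0.17. Both let-7i-5p (0.44 and -0.21) and miR-191-5p (0.32 and -0.34) were higher with TMM and lower with library totals. So were miR-142a-3p (0.28 and -0.38), miR-101b-3p (0.30 and -0.36), let-7c-5p (0.37 and -0.29), the muscle microRNA miR-206-3p (0.37 and -0.29) and let-7b-5p (0.44 and -0.22). With the 10 most abundant rows left out of the totals, none of these 7 was lower, and let-7i-5p (0.31), let-7c-5p (0.23) and let-7b-5p (0.30) were higher. All of them but miR-191-5p also lost a call under at least 1 scaling when some single library was left out.

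MicroRNAs were grouped into lists by the cells that are known to be rich in them. A lower level cannot tell fewer vesicles of a cell type apart from fewer copies in each. Lists are described by counts of members called and by medians, beside medians of 0.090 with TMM and -0.56 with library totals over all 348 rows. Of all 348 rows 6.9% were higher and 27% lower under both scalings, 26.4% and 27% with TMM, and 6.9% and 49.7% with library totals. The lists are small and were not tested against these shares. Of the 12 red cell members 7 rose under both scalings and miR-144-5p fell (1978, 1648 and 2054 CPM against 1089, 1099 and 965, -0.85, adjusted p = 1.31e-05, and -1.50 with library totals). The 7 include miR-486a-5p and miR-486b-5p, and also miR-486a-3p and miR-486b-3p, which are identical pairs, so 5 of 10 distinct rows rose. The median was 1.15 with TMM and 0.50 with library totals. With both rows of each identical pair in the sum, the red cell members took 41.1%, 38.7% and 40.4% of counts on chow. On the high fat diet they took 54.2%, 56.3% and 56.2%, and none was at 0 in any library. The part of this share in the library-total values of other microRNAs was not tested. With the 10 most abundant rows out of the totals the median of all rows was -0.045, 75 rows were higher and 108 lower, and with identical rows counted once the median was -0.48, with 27 higher and 156 lower.

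Of the 9 myeloid and platelet members 8 were higher with TMM, and miR-223-3p and miR-146a-5p rose under both scalings (median 0.71 with TMM and 0.053 with library totals). Over all tested rows 26.4% were higher with TMM, and 6.9% rose and 27% fell under both. Their summed share of counts overlapped between groups, at 10.5 ± 0.488% and 9.99 ± 0.177% (exact permutation p = 0.2). The 6 tested lymphocyte members split, with miR-150-5p and miR-342-3p higher under both scalings and miR-155-5p, miR-181a-5p and miR-181b-5p lower under both. The activation-induced miR-155-5p stood at 887, 705 and 771 CPM against 227, 217 and 241 (-1.79, SE 0.13, adjusted p = 1.03e-08, and -2.44 with library totals). Its direction was thus opposite to that of miR-146a-5p, which NF-kB also induces. Both endothelial arms of miR-126a were higher with TMM, and miR-126a-5p also with library totals (0.26, adjusted p = 0.0337).

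Of the 5 tested hepatocyte members 3 fell under both scalings, namely miR-192-5p, miR-194-5p and miR-101a-3p, the counts of which equal those of miR-101c (median -0.41 with TMM and -1.07 with library totals). Over all tested rows 27% fell and 6.9% rose under both. The most liver-specific of them, miR-122-5p, stood at 5222, 6684 and 3566 CPM against 4973, 3899 and 4407, with overlapping groups (-0.22, adjusted p = 0.275, and -0.88, adjusted p = 0.000315, with library totals). The hepatocyte share was 2.13 ± 0.167% and 0.874 ± 0.0289% of counts. Of the 11 tested adipocyte members 6 fell under both scalings and none rose (median -0.50 with TMM and -1.16 with library totals), and their share went from 4.30 ± 0.0850% to 2.64 ± 0.0386%. These 6 were miR-196a-5p, miR-378a-5p, miR-365-3p, miR-30a-3p, miR-378a-3p and miR-26a-5p. Among them miR-196a-5p passed the filter only through chow WT. With upper quartile scaling miR-26a-5p was at 0.0053 and miR-378a-3p at -0.18, neither called. The brown fat microRNA miR-365-3p stood at 345, 359 and 343 CPM against 131, 101 and 137 (-1.51, SE 0.15, adjusted p = 6.07e-07, and -2.17 with library totals), and miR-378a-5p, from within the gene of a mitochondrial coactivator, had 447, 469 and 353 CPM against 117, 108 and 85.8 (-2.03, SE 0.16, adjusted p = 4.78e-08, and -2.69 with library totals). The insulin sensitivity regulators miR-103-3p and miR-107-3p were higher with TMM (0.56 and 0.51) and not called with library totals (-0.10 and -0.15).

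Of the 12 epithelial members 6 fell under both scalings and none rose (median -0.77 with TMM and -1.43 with library totals), beside 27% and 6.9% of all tested rows. They were the 5 miR-200 family arms listed at the start and miR-203b-3p, which passed the filter only through chow WT. The share of the epithelial members went from 1.55 ± 0.0959% to 0.393 ± 0.0768% of counts. The sensory and skin microRNAs miR-183-5p and miR-96-5p passed under neither scaling, and miR-205-5p was at 1610, 1763 and 1463 CPM against 3810, 2110 and 1869 (0.69, adjusted p = 0.00971, and 0.028, adjusted p = 0.923, with library totals). Without HFD WT replicate 1, its highest library, miR-205-5p was called lower with library totals (-0.36). Among 9 stromal and smooth muscle members miR-214-3p rose and miR-145a-5p and miR-100-5p fell under both scalings (median -0.14 with TMM and -0.80 with library totals). These counts lie near the shares of all tested rows. The smooth muscle microRNA miR-145a-5p stood at 2360, 2012 and 2683 CPM against 593, 276 and 321 (-2.56, SE 0.22, adjusted p = 1.16e-07, and -3.22 with library totals), while miR-143-3p from the same transcript had 2952, 3445 and 2280 against 3521, 3573 and 3446 (0.28, adjusted p = 0.0707, and -0.38, adjusted p = 0.0179, with library totals).

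None of the 4 tested striated muscle members and none of the 4 islet members was called under both scalings by edgeR. With TMM 2 of each were higher, and with library totals 3 of the muscle members were lower and 0 of the islet members were called. Over all tested rows 26.4% were higher with TMM, 49.7% lower with library totals and 27% lower under both. The abundant muscle microRNA miR-133a-3p was at 3420, 3033 and 2902 CPM against 6049, 4764 and 4963 (0.75, adjusted p = 2.83e-05, and 0.10, adjusted p = 0.476, with library totals), and the islet microRNA miR-375-3p at 100.2 ± 36.4 CPM (SD, n = 3) against 146 to 240 (0.89, adjusted p = 0.00808, and 0.23, adjusted p = 0.467). Of the 9 brain members 4 fell under both scalings, namely both arms of miR-9, miR-219a-5p and miR-218-5p (median -0.97 with TMM and -1.63 with library totals). The TMM call of miR-218-5p was lost without chow WT replicate 2 (-0.57) or 3 (-0.94) and without HFD WT replicate 1 (-0.82) or 2 (-0.94). The libraries varied widely for miR-9-5p, with 439, 705 and 311 CPM on chow and 250, 123 and 307 on the high fat diet.

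**Figure D4:**
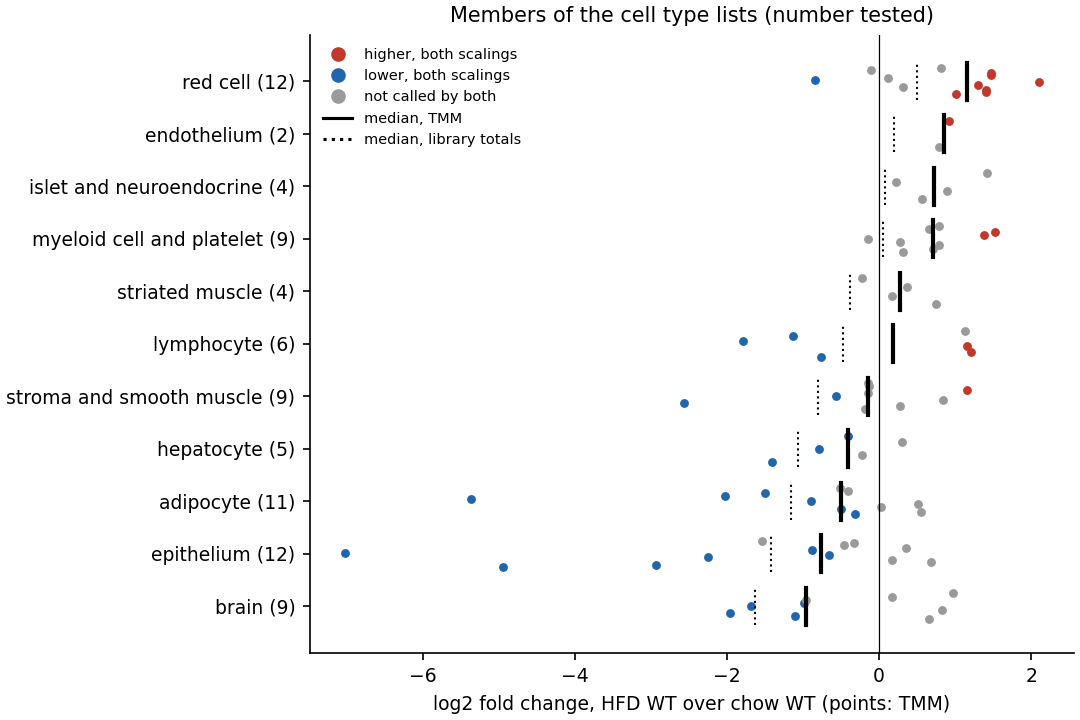
TMM log2 fold change of HFD WT over chow WT (x axis) for each tested member of the cell type lists (rows, number tested in brackets), red where higher under both scalings, blue where lower under both, grey otherwise. Solid bars mark the list median with TMM and dotted bars with library totals; the red cell median is the highest with TMM (1.15) and the brain median the lowest (-0.97).

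Families that share a seed did not all move as units. Over all tested rows 6.9% rose and 27% fell under both scalings, and no family was tested against these shares. The family of miR-429, miR-200b and miR-200c had the widest range among the 13 seeds with at least 3 tested members, from -4.94 to -0.66 with TMM, although all 3 fell under both scalings. All 4 miR-181 members, which tune T cell receptor signalling, fell under both scalings, from -1.44 in miR-181c-5p to -0.63 in miR-181d-5p, which was not called with TMM without chow WT replicate 1 (-0.49). In the family of miR-99a, miR-99b and miR-100, which represses mTOR, miR-99b-5p rose, miR-100-5p fell (447, 418 and 488 CPM against 295, 333 and 288, -0.56, adjusted p = 0.0016, and -1.22 with library totals), and miR-99a-5p had 0.055 with TMM and -0.60 with library totals. Of 6 members with the miR-16 seed miR-16-5p rose and miR-497a-5p fell under both scalings, although the TMM call of miR-497a-5p was lost without chow WT replicate 1 or 2 and without HFD WT replicate 3 (-0.69, -0.59 and -0.56). With the miR-148 seed, miR-148a-3p rose (526, 571 and 484 CPM against 1028, 1095 and 1059, 1.01, adjusted p = 2.03e-06, and 0.35 with library totals) and miR-152-3p fell (900, 884 and 866 against 533, 590 and 560, -0.66, adjusted p = 0.000104, and -1.31 with library totals). The narrowest range was that of miR-125a-5p, miR-125b-5p and miR-351-5p, at 0.61 to 0.68 with TMM and close to 0 with library totals, where none was called. Of the 9 let-7 guide strands 6 were higher with TMM and 6 lower with library totals, beside 26.4% and 49.7% of all tested rows, and none was called the same way by both.

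MicroRNAs cut from 1 primary transcript were also called in different directions in some clusters. With 6.9% of all tested rows higher and 27% lower under both scalings, some such calls occur in any group of rows, and no cluster was tested. From the miR-17 to miR-92a-1 cluster 9 arms were tested, and miR-92a-3p rose while miR-17-3p and miR-19b-3p fell under both scalings, the last of which is also made from the X-linked cluster. The TMM call of miR-19b-3p was lost without chow WT replicate 1 (-0.21) or HFD WT replicate 2 (-0.37). The level of miR-17-3p was 884, 1026 and 958 CPM against 329, 421 and 404 (-1.31, SE 0.13, adjusted p = 3.66e-07, and -1.97 with library totals). Both tested arms of the p53-induced miR-34b to miR-34c transcript fell, miR-34c-5p from 78.9, 102 and 95.4 CPM to between 15.7 and 24.1 (-2.23, SE 0.27, adjusted p = 4.98e-06). The other arm, miR-34b-3p, passed the filter only through chow WT. In the miR-221 to miR-222 cluster both 3p guide strands fell, miR-221-3p from 5740, 6183 and 6521 CPM to 3359, 2948 and 2721 (-1.03, SE 0.10, adjusted p = 3.79e-07, and -1.69 with library totals). The TMM call of miR-222-3p was lost in 3 of the leave-one-out fits: to -0.37 and -0.34 when the first or the third chow WT library was dropped, and to -0.36 when the second HFD WT library was. From the miR-99b to miR-125a transcript miR-99b-5p rose and miR-99b-3p fell under both scalings, with let-7e-5p (0.94) and miR-125a-5p (0.68) higher with TMM only.

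The ratio of the arms of a precursor within a library does not depend on the scaling. Of 82 precursors with both arms tested, the 5p to 3p ratio was higher in HFD WT in 15 (18.3%) and lower in 15 (18.3%) by limma (adjusted p below 0.05). Some had an arm that passed the filter on low counts only through the group where it was higher. They include miR-143, miR-152 and miR-330 (through chow WT) and miR-139 (through HFD WT), and their calls are no finding. The more abundant arm gained in 18 of the 30 called and lost in 12, and in none of the 30 did the other arm become the more abundant. The log2 ratio of let-7d-5p to let-7d-3p was 2.00, 1.97 and 1.56 on chow and 3.95, 3.93 and 3.87 on the high fat diet (difference 2.07, SE 0.22, limma adjusted p = 0.000846). For miR-99b it was 2.05, 2.35 and 1.96 against 5.12, 4.39 and 4.49 (difference 2.54, SE 0.27, limma adjusted p = 0.000846), and this was the only precursor whose arms were called in opposite directions under both scalings. The ratio also rose for miR-10b (by 1.93), the Hox-encoded miR-10a (by 2.04) and miR-200b (by 1.81).

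In the other direction, the log2 ratio of miR-345 was -0.60, -0.94 and -0.24 on chow and -2.88, -2.80 and -2.87 on the high fat diet (difference -2.26, SE 0.24, limma adjusted p = 0.000846). The ratio also fell for miR-143 (difference -2.58), miR-145a (-2.33), miR-378a (-1.50) and miR-296 (-2.65). The 5p arm of miR-143 passed the filter on low counts only through chow WT, so the call of miR-143 is no finding. In 12 of the 30 the less abundant arm had under 10 counts in a chow WT library, among them miR-200b, miR-145a and miR-296. With 5 counts instead of 0.5 added to each arm there were 24 higher and 25 lower. Among 31 precursors with at least 10 counts of both arms in every library there were 10 and 13.

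**Figure D5:**
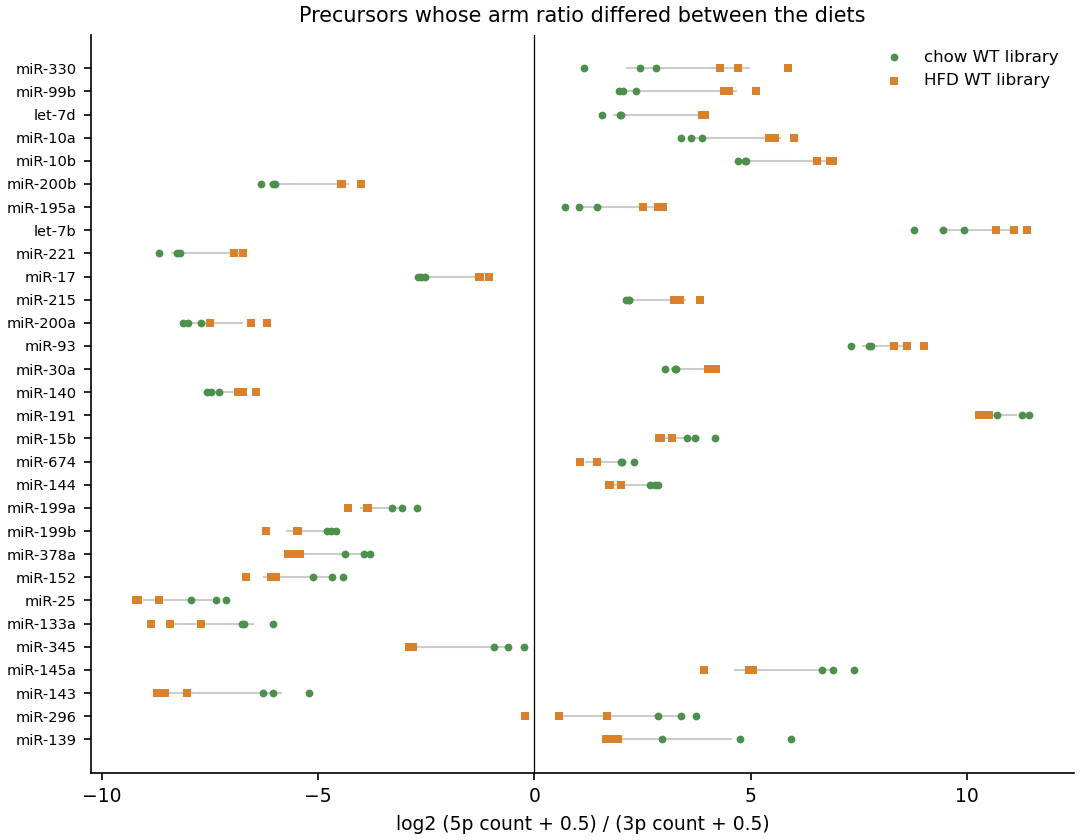
The log2 ratio of 5p to 3p counts, each plus 0.5 (x axis), per library for the 30 precursors called (rows), circles chow WT and squares HFD WT, with a grey line between the group means. The line at 0 marks equal arms, and no group mean crosses it. Calls that are no finding include those of miR-139, miR-143, miR-152 and miR-330, where an arm passed the filter only through its higher group.

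The microRNA of the series title, miR-30a-3p (chr1:23272315-23272336), is the less abundant arm of its precursor. It stood at 595, 573 and 534 CPM on chow and 308, 285 and 321 on the high fat diet, so it was lower in every HFD WT library. The log2 fold change was -0.90 (SE 0.12, adjusted p = 1.37e-05) with TMM and -1.56 (adjusted p = 2.32e-08) with library totals. Its guide partner miR-30a-5p had 4856, 5527 and 5125 CPM against 4988, 4878 and 5871, with overlapping groups (0.021, adjusted p = 0.868, and -0.64, adjusted p = 4.39e-05, with library totals). The log2 ratio of the 5p to the 3p arm was 3.03, 3.27 and 3.26 on chow and 4.02, 4.10 and 4.19 on the high fat diet, a difference of 0.92 (SE 0.20, limma adjusted p = 0.0114) that does not depend on the scaling. Of the closely related 5p arms, miR-30c-5p and miR-30b-5p fell under both scalings (-0.83 and -0.93 with TMM), and miR-30d-5p was higher with TMM only (0.78, and 0.12 with library totals). Like miR-30a-5p, with which it shares a seed, miR-30e-5p was not called with TMM (0.071) and was lower with library totals.

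Predicted microRNAs took 0.0940 ± 0.0225% of counts on chow and 0.00694 ± 0.000808% on the high fat diet (SD, n = 3), with no overlap between the groups. Only 6 of the 105 passed the filter on low counts. Of these 5 had fewer than 10 counts in every HFD WT library and passed only through chow WT, so they had to be lower on the diet and their calls are no finding. The rows 15_11735 and 5_24224 had identical counts of 41, 45 and 37 in chow WT and 0 in every HFD WT library, at least 305-fold lower on library totals when 3 counts are taken as the floor of the whole group. The row 6_27403 had 36, 17 and 24 counts against 0 (at least 191-fold lower), 11_4481 had 10, 16 and 20 against 0 (at least 114-fold lower), and 13_8063 had 71, 69 and 118 against 5, 5 and 9. Known microRNAs numbered 1000 and above went from 2.06 ± 0.149% to 0.312 ± 0.0117% of counts, but most of this was miR-6240 alone. Without it the share was 0.541%, 0.508% and 0.587% against 0.260%, 0.255% and 0.254%. Of the 36 tested 8 were lower (22.2%) and 1, miR-1198-5p, higher (2.78%) under both scalings, beside 27% and 6.9% of all rows, and their median log2 fold change was 0.20 with TMM and -0.46 with library totals.

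In all, 14 rows had counts in every chow WT library and in no HFD WT library, 9 of them predicted, although HFD WT was the deeper group. Beyond those above, they include both arms of miR-712, with 11, 4 and 5 counts for the 5p arm and 3, 8 and 10 for the 3p arm (at least 49.6-fold and 52.1-fold lower). Both arms are counted among the decreases under both scalings, but passed the filter only through chow WT, so their calls are no finding. In the other direction 37 rows had counts in every HFD WT library and in no chow WT library, but only 3 lay above the level that the chow WT depth could have shown. The first was miR-511-5p, from the mannose receptor gene of macrophages, with 14, 8 and 17 counts (at least 1.75-fold higher). The others were miR-667-3p with 14, 1 and 12 counts (at least 1.21-fold) and miR-760-3p with 18, 5 and 1 (at least 1.07-fold). Both of the latter had a single count in 1 HFD WT library. For the other 34 a difference was not detectable at the chow WT depth.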

How the data were processed

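The deposited tables give, for each mature microRNA and library, a read count made by the authors. The deposited TPM table equals these counts per library total times 1000000 (largest difference 5.00e-05) and served as an alternative. Bowtie 0.12.2 and genome build mm8 are named without a role per the submitters' processing notes. Trimming, microRNA reference and counting program: not given in the sources used here. Since mm8 differs from GRCm38.p6, sequences (RefSeq) and positions with annotation (GENCODE vM21) were matched by name only.

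Counts of the 6 libraries were filtered (filterByExpr, minimum count 10) and tested in R 4.3.3 with edgeR 4.0.16 quasi-likelihood under TMM and under library totals, with Benjamini-Hochberg adjustment over all 348 rows and a threshold of 0.05. Arm ratios were tested with limma 3.58.1 on log2 of counts plus 0.5. For shares and numbers, exact permutation tests (two-sided) were run. These steps were tested on simulated data. Alternatives covered the libraries fitted, filters, depth, scaling, DESeq2 1.42.0, limma on log2 TPM plus 1 and plus 0.1, arm pseudocount, single libraries left out and a replicate block. A total of 8 sets of rows (16 in all) had identical counts and held 26.3% of counts. The comparison, lists and rules were chosen with earlier results of these data known. Named were the 10 known microRNAs with the smallest p in each direction among those called without overlap under both scalings, the 10 most abundant, up to 5 with opposite calls, members of lists and clusters with the highest levels, up to 5 arm ratios per direction, up to 5 predicted rows, up to 5 rows seen in a single group and miR-30a-3p. Others, such as members of seed families, were named after their values were seen.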

Additional observations from a re-analysis of the deposited data

How the results depend on the processing

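Counts of calls kept within 1.5 times their value under most settings. With the 10 most abundant rows left out of the library totals, 75 were higher and 108 lower, and with an arm pseudocount of 5 there were 24 precursors with a higher and 25 with a lower ratio, of which 15 and 14 were among the 15 and 15. The difference in microRNAs detected (187 more in HFD WT) turned to -58.3 with HFD WT thinned to the chow WT depth and to -52.7 with all 6 libraries thinned, the latter chosen after the data were seen. Leaving out single libraries gave 83 to 88 higher and 76 to 96 lower with TMM, 18 to 24 and 147 to 170 with library totals, and 18 to 24 and 76 to 96 under both. The islet share, which was 0.00148 percentage points lower in HFD WT, ranged from -0.00568 to 0.00194, above 0 without chow WT replicate 3 (0.000926) and without HFD WT replicate 3 (0.00194). With all 9 libraries in the fit 86 and 70 were called with TMM and 19 and 139 with library totals, and with DESeq2 83 and 92, and 20 and 163. Without a filter 20 of the 24 increases and 72 of the 94 decreases under both scalings were kept, and with HFD WT thinned 20 and 75. Deviations from the group means correlated at 0.108, -0.105 and -0.011 between libraries of the same replicate number, a check that cannot exclude that they were handled as pairs. With the replicate block 87 were higher and 92 lower with TMM, 24 and 174 with library totals, 24 and 92 under both, and 13 and 14 precursors differed in arm ratio. Of the microRNAs named in the text 104 were refitted under the alternatives in both scalings. With TMM 72 of 1440 repeats of called values lost the call, in 22 microRNAs, and with library totals 99 of 1377, in 24; of 74 called under both scalings 50 kept both calls in every alternative run. Most losses among those called under both came with all 9 libraries, with upper quartile factors or without a single library. The sign changed in 12 repeats with TMM and 36 with library totals, mostly in microRNAs not called in the first place. With upper quartile factors miR-122-5p came to 0.090 and miR-26a-5p to 0.0053. For miR-30a-5p and miR-99a-5p the TMM values were -0.057 and -0.026 with DESeq2 size factors in edgeR, -0.071 and -0.079 with HFD WT thinned, and -0.084 and -0.052 with the stricter filter. With library totals and HFD WT thinned miR-125a-5p was at -0.0097, miR-125b-5p at -0.0077 and miR-351-5p at 0.20. With identical rows counted once miR-351-5p was at 0.039 and let-7d-5p at 0.061, and miR-205-5p was at -0.0397 by limma with either pseudocount and at -0.039 with the replicate block. With the 10 most abundant rows left out of the totals the values were 0.038 in miR-203-3p, 0.23 in miR-183-5p, 0.38 in miR-107-3p, 0.42 in miR-103-3p, 0.47 in miR-351-5p, 0.30 in let-7b-5p, 0.50 in let-7d-5p, 0.23 in let-7c-5p, 0.16 in miR-101b-3p, 0.14 in miR-142a-3p, 0.36 in miR-29a-3p, 0.15 in miR-143-3p, 0.31 in let-7i-5p, 0.18 in miR-451a, 0.24 in miR-206-3p and 0.19 in miR-191-5p. Without single libraries the values ran from -0.068 to 0.071 in miR-30a-5p and from -0.041 to 0.12 in miR-99a-5p with TMM. With library totals they ran from -0.049 to 0.0051 in let-7d-5p, -0.076 to 0.10 in miR-125a-5p, -0.075 to 0.12 in miR-125b-5p, -0.017 to 0.16 in miR-133a-3p, -0.36 to 0.22 in miR-205-5p, -0.21 to 0.057 in miR-351-5p and -0.021 to 0.53 in miR-375-3p. The depth of chow WT limits low rows: 3 counts over the group equal 3.64 CPM there and 0.488 in HFD WT.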
